A study of Mus musculus with 6 samples.

Results

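Mitochondrial ribosomal proteins are the nuclear-encoded proteins of the ribosome inside mitochondria. Their genes were taken by symbol, as every gene named Mrpl or Mrps followed by a number, and each gene was read from its brightest probe set by the mean of the 6 arrays. This gave 76 genes of 18193 measured, all annotated as protein-coding, of which 49 encode large subunit proteins and 26 small subunit proteins. The remaining gene, Mrps36, carries a ribosomal name but encodes a component of the 2-oxoglutarate dehydrogenase complex. Genes named Mrps18a and Mrps30 were counted with the large subunit, where their proteins sit.

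The data are 6 Affymetrix arrays of mouse bone marrow progenitors sorted as Lin- Sca1+ CD150+ CD48+. The 3 control arrays came from mice with floxed c-myc and N-myc alleles (c-myc f2 N-myc f2). The 3 dKO arrays came from mice with the same alleles plus the MxCre transgene, whose promoter responds to interferon and is not limited to the sorted cells. All mice were 8 weeks old, on a mixed background, and received 2 daily treatments with the interferon inducer pI-pC, the last of them 3 days before the cells were taken. Each control array holds a pool of 2 mice and each dKO array a pool of 3. Since only the dKO mice carried MxCre, an effect of the transgene cannot be told apart from the loss of both genes. The tissue label of control 1 names LT-HSCs, although its gate is the same as that of the other arrays.

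The mitochondrial ribosome translates the few messages of mitochondrial DNA, which encode core subunits of the respiratory chain and ATP synthase, while all of its proteins are made in the cytosol and imported. Some of these proteins descend from bacterial ribosomal proteins and others were added in mitochondria. MYC proteins bind many genes of ribosome production and mitochondrial biogenesis, mostly through the E-box CACGTG, and nuclear respiratory factor NRF1 binds a GC-rich palindrome in promoters of mitochondrial genes. The comparison asks how the transcripts of this ribosome differ when c-Myc and N-Myc are lost together.

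To show the letters these genes carry near their starts, RefSeq promoter windows (build GRCm38.p6, 250 bases before to 50 bases after the start) were matched to 67 of the 76 genes. The E-box CACGTG, which reads the same on both strands, was found in 5 of the 67 genes (7.46%), against 8.91% of 17492 protein-coding genes in windows of the same length. Those 5 sites follow in windows of 30 bases, 5′ to 3′ on the gene's strand, with the E-box in capitals.
Mrpl2 (chr17:46646078-46646107, + strand): actgccgcccgtCACGTGacccgagcaacc
Mrpl20 (chr4:155802833-155802862, + strand): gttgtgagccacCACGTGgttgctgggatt
Mrpl36 (chr13:73330954-73330983, + strand): cacacgtcatccCACGTGaccttacgccat
Mrpl37 (chr4:107067011-107067040, - strand): agcaagtttcttCACGTGtggcacttcaga
Mrps18c (chr5:100798584-100798613, + strand): gcagccccgggtCACGTGacttccggcccg

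An NRF1-like core (GCGC, any 2 bases, GCGC) was found in 13 of the 67 genes (19.4%), against 9.61% of the protein-coding genes. It too reads the same on both strands, and 0 genes held both motifs. The 250 bases before the start had a median GC content of 58.4% in the 67 genes and 55.2% in the protein-coding genes, and the part of base composition in the share of cores was not tested. The cores of the 2 lowest fold changes and of the highest among these 13 genes are printed with the core in capitals.
Mrpl9 (chr3:94443298-94443327, + strand): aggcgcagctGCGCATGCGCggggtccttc
Mrpl12 (chr11:120484546-120484575, + strand): tattgtctccGCGCCTGCGCgtcgcaccgc
Mrpl17 (chr7:105811117-105811146, - strand): aggctctgatGCGCACGCGCaaacgcggta

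Neither motif lay in the windows of Mrpl23, which had the lowest fold change of all 76 genes, or of Mrpl52, which had the highest. Their 250 bases before the start are shown without capitals for that reason, and the absence says only that these letters are not in the windows.
Mrpl23 (chr7:142532782-142533031, + strand): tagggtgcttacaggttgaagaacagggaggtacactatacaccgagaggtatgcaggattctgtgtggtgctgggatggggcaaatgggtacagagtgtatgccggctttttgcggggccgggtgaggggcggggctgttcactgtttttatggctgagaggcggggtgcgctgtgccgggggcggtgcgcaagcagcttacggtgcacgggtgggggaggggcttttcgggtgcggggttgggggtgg
Mrpl52 (chr14:54426659-54426908, + strand): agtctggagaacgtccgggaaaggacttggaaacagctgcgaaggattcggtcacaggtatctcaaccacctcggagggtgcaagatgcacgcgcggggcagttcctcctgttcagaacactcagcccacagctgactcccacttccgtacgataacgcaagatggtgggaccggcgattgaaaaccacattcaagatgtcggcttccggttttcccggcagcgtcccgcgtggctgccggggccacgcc

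The targeted genes and the rest of the arrays were checked on the same values. Myc fell from 10.74 ± 0.24 to 7.77 ± 0.29 (SD, n = 3; limma, adjusted p = 0.00014), and 1 probe set of Mycn, the second brightest, fell by 5.27 ± 0.34 (adjusted p over all probe sets = 0.000306), while the brightest Mycn probe set did not pass (-0.83 ± 0.27, adjusted p = 0.133). Of the gate's genes, Cd48 read 11.09 to 11.69 and the brightest Slamf1 (CD150) probe set 7.74 to 9.58 across the arrays. The groups also differed in markers of other blood cells, given as counts past the threshold and as the range of the list's summed linear level. Of all genes, 2.85% were lower and 3.12% higher. T and NK cell markers were higher in 10 of 14 (2340 to 3730 in control, 7460 to 10500 in dKO), megakaryocyte markers in 7 of 13 (3250 to 3340 and 10500 to 12600) and mast cell and basophil markers in 5 of 9 (1690 to 2380 and 5030 to 7450). B cell and lymphoid progenitor markers were lower in 4 of 12 (3460 to 4860 and 1110 to 1630), granulocyte and monocyte markers lower in 3 and higher in 1 of 13 (9070 to 14500 and 2160 to 5920), and erythroid markers higher in 2 and lower in 1 of 8 (4470 to 4860 and 3090 to 4940). No marker was at 0, since an array probe set always carries some background. Their part in the values of the mitochondrial ribosomal genes was not tested. Xist signal stood apart in control 1 and dKO 1 (10.57 and 11.32 on the second brightest probe set, 4.44 to 5.33 on the other arrays). Without both pools 0 of the 76 mitochondrial ribosomal protein genes passed in either direction, and their median log2 fold change was -0.09, against -0.06 with all arrays.

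Few genes of the mitochondrial ribosome passed the test. Mrpl23 and Mrps35 fell in dKO and 0 of the 76 genes rose (limma, adjusted p under 0.05), which is 2.63% of them lower against 2.85% of all genes lower, 3.12% higher and 5.97% in either direction. The share of lower genes was close to that of all genes, dim ones included. Among genes kept by a filter on dim genes, 2 of 75 were lower and 1 higher. These were smaller shares than the 612 and 581 of all 10319 genes kept. At an unadjusted p under 0.05, 7 genes were lower and 3 higher, or 9.21% and 3.95%, against 9.14% and 9.10% of all genes. The median log2 fold change (dKO minus control) was -0.06, against 0.05 over all genes and 0 over all genes kept by the filter. Single genes ran from -0.83 to 0.71. A difference below 0 was found for 43 of the 76 genes (56.6%), against 42.4% of all genes, dim ones included. The share below 0 among genes kept by the filter was not taken.

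The spread of the arrays bounds how large a difference could have been missed. The 95% interval of the log2 fold change, from the limma fit and not adjusted for the number of genes, lay within 2-fold in both directions for 70 of the 76 genes. It reached a 2-fold fall for Mrpl23, Mrpl48, Mrps2, Mrps35 and Mrps30 and a 2-fold rise for Mrpl52. The interval reached 0.35 to 0.62 to either side of the estimate on the log2 scale, with a median of 0.42. Passing the threshold took a larger difference, since its p-values were adjusted over all genes. Mrpl52 (0.71) and Mrps2 (-0.67), for example, did not pass with 3 arrays a group. These are bulk samples, in which fewer cells of a type and less RNA per cell cannot be told apart.

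**Figure D1:**
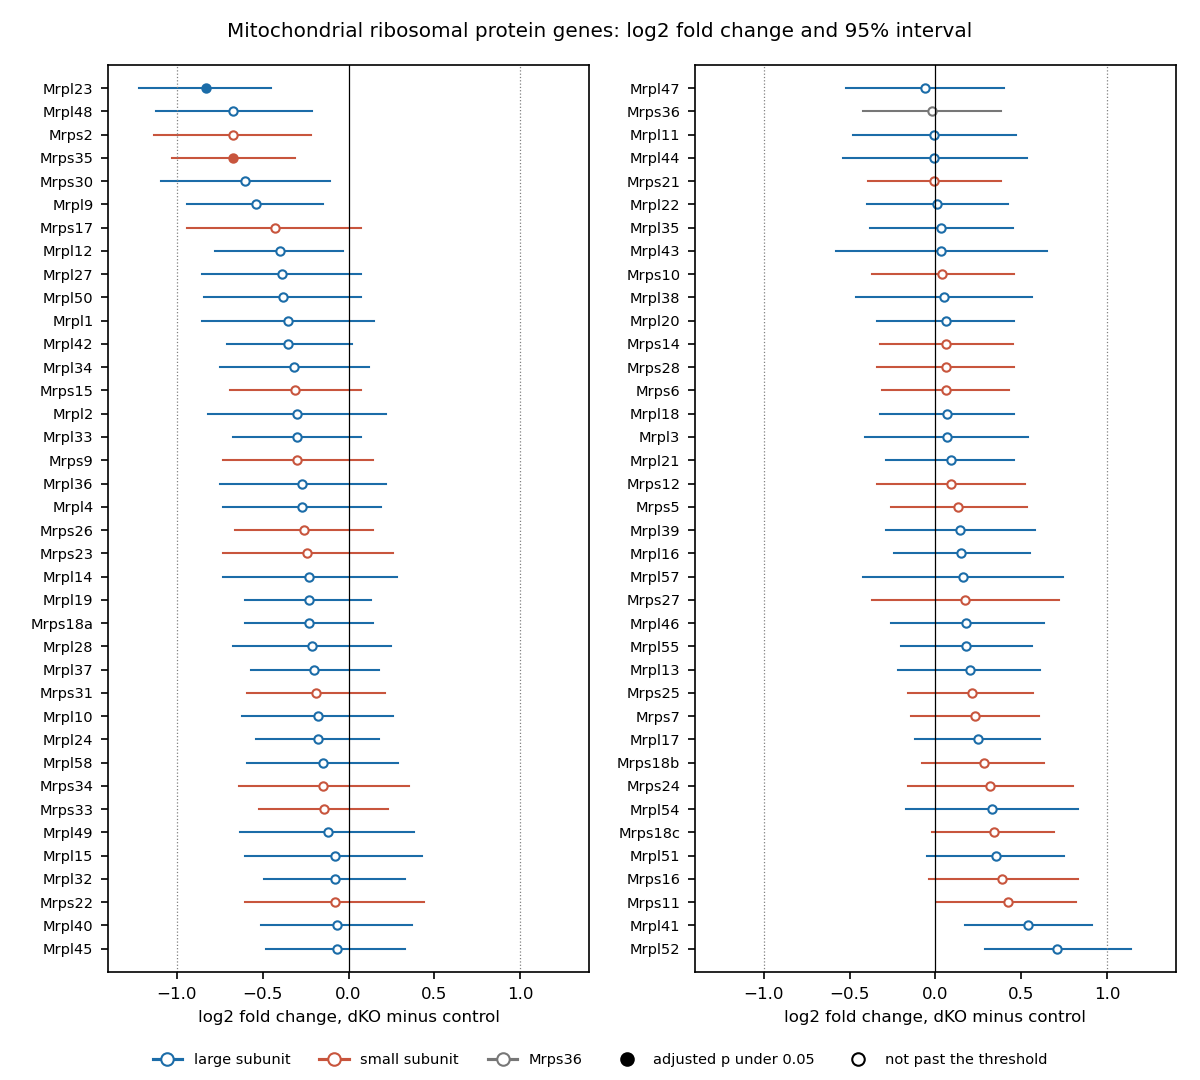
Log2 fold change (x axis, dKO minus control) with its 95% interval for each of the 76 genes, ordered from lowest to highest across both panels and coloured by subunit. Filled points mark the 2 genes past the threshold, Mrpl23 and Mrps35, and dotted lines mark a 2-fold difference, which 70 of the 76 intervals do not reach.

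Array by array, the set's median deviation from the control mean was at most 0.12 in size. Set against each gene's control mean, the median deviation of the 76 genes was -0.01 in dKO 1, -0.12 in dKO 2 and -0.02 in dKO 3. That of all genes was 0.04, -0.03 and 0.12 in the same arrays. In the control arrays the 76 genes had median deviations between -0.04 and 0.06. Their median level was 8.53, 8.57 and 8.45 in dKO 1, 2 and 3, and 8.66, 8.66 and 8.70 in control 1, 2 and 3. Between 39 and 46 of the 76 genes lay below their control mean in each dKO array, and 30 to 46 in each control array. Groups did not overlap for 24 genes (31.6%, against 23.4% of all genes). With dKO lower there were 15 (19.7%, against 10.7%) and with dKO higher 9 (11.8%, against 12.7%). All genes here include dim ones, since the filter on dim genes kept 75 of these 76 but 10319 of all 18193. Shares without overlap were not taken among the genes kept. The SD within a group had a median of 0.14 in control and 0.19 in dKO. It was widest for Mrpl43 in control (0.48) and for Mrpl57 in dKO (0.47).

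Mrpl23 encodes a conserved protein of the large subunit whose bacterial counterpart lines the exit of the peptide tunnel. Its log2 values were 9.19, 9.28 and 9.14 in control 1, 2 and 3, and 8.36, 8.54 and 8.20 in dKO 1, 2 and 3. All 3 dKO pools thus lay below all control pools, by more than the spread within either group. It fell from 9.20 ± 0.07 to 8.36 ± 0.17 (SD, n = 3), a log2 fold change of -0.83 ± 0.17 (SE) or 1.78-fold (limma, adjusted p = 0.0207). The call was lost without control 1 (adjusted p = 0.0668), control 2 (0.0918), control 3 (0.0739) or dKO 1 (0.0677), with log2 fold changes between -0.80 and -0.87. Without control 1 and dKO 1 together it was -0.84 (adjusted p = 0.157).

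Mrps35, a small subunit protein without a bacterial counterpart, was the other gene past the threshold. It stood at 8.92, 8.97 and 8.82 in the control arrays and at 8.32, 8.21 and 8.17 in the dKO arrays. All dKO arrays lay below all control arrays, and the SD was 0.08 in each group. The log2 fold change was -0.67 ± 0.16 (SE), or 1.59-fold (limma, adjusted p = 0.0417), with an interval from -1.03 to -0.31. It lost the call with any single array left out, with adjusted p = 0.0592 when dKO 3 was out and 0.152 when control 2 was out as the ends of the range. Mrps35 was the gene just inside the threshold and Mrpl52, described with the genes that were higher, the one just outside it (adjusted p = 0.0621).

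The next lowest genes did not pass, although the groups did not overlap in the brightest probe set of any of them. Mrps2 encodes a conserved small subunit protein. Its values were 8.98, 8.90 and 9.17 in control and 8.40, 8.63 and 8.00 in dKO, with dKO 3 the lowest array and a log2 fold change of -0.67 ± 0.20 (limma, adjusted p = 0.099). The other Mrps2 probe set, with a mean of 8.31, differed by only -0.12 ± 0.18 (limma, adjusted p over all probe sets = 0.837), and its groups overlapped. Mrpl48 encodes a protein of the central protuberance, the knob of the large subunit that faces the small one. It stood at 9.17, 8.76 and 9.19 in control and 8.41, 8.60 and 8.11 in dKO, and differed by -0.67 ± 0.20 (adjusted p = 0.101). Mrps30 is a large subunit protein added in mitochondria. Its arrays read 8.43, 8.66 and 8.66 in control and 8.33, 8.04 and 7.58 in dKO, a difference of -0.60 ± 0.22 (adjusted p = 0.169), and dKO 1 came within 0.10 of the lowest control array. In all 3 of these genes dKO 3 was the lowest array.

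Mrpl52 and Mrpl41, both large subunit proteins added in mitochondria, had the highest fold changes. Mrpl52 stood at 11.22, 11.49 and 11.37 in control and 11.96, 11.90 and 12.37 in dKO. Every dKO pool lay above every control pool, and the log2 fold change was 0.71 ± 0.19 (SE), with an interval from 0.29 to 1.14. It passed the threshold in some settings, with adjusted p = 0.0383 under a filter on dim genes, 0.035 with the mean of its probe sets, 0.0439 under a second quantile normalization, 0.00765 with a variance trend and robust moderation together and 0.0387 with array weights. Mrpl41 stood at 9.63, 9.74 and 9.68 in control and 10.14, 10.37 and 10.15 in dKO. The control arrays were tight (SD 0.05), and the difference of 0.54 ± 0.16 had adjusted p = 0.0993, or 0.0386 with a variance trend and robust moderation together.

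The remaining genes of the upper end were smaller in difference. Mrps11, a conserved small subunit protein, read 7.77, 7.77 and 7.54 in control and 7.99, 8.00 and 8.35 in dKO, a difference of 0.42 ± 0.18 (limma, adjusted p = 0.255). Mrps16, also conserved, read 7.68, 8.20 and 8.14 in control and 8.37, 8.53 and 8.30 in dKO (0.39 ± 0.19, adjusted p = 0.338). Control 1 was the low array there. Mrpl51, added in mitochondria, read 10.90, 11.27 and 10.91 in control and 11.46, 11.26 and 11.42 in dKO (0.35 ± 0.18, adjusted p = 0.352), and was the only gene of these 5 whose groups overlapped, through control 2 and dKO 2.

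**Figure D2:**
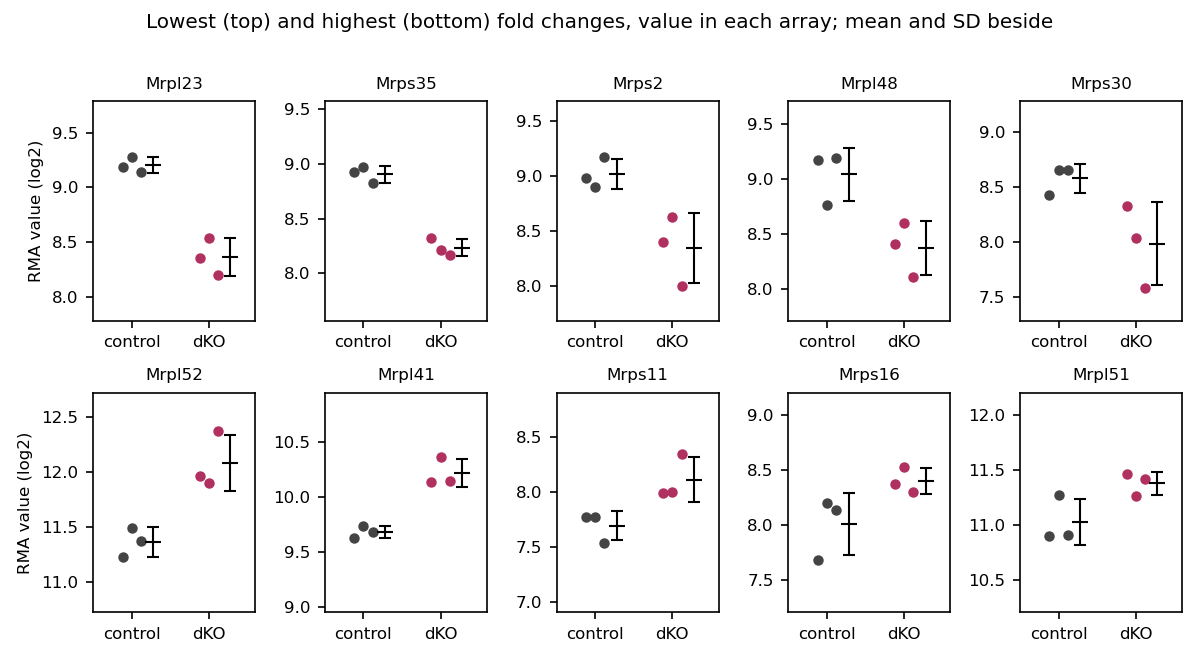
RMA values (log2) in each control and dKO array for the 5 genes with the lowest fold changes (top row) and the 5 with the highest (bottom row), with the mean and SD of 3 arrays beside the points; each panel spans 2 log2 units. The groups overlap in 1 of the 10 panels, Mrpl51, and the largest differences are those of Mrpl23 (-0.83) and Mrpl52 (0.71).

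Each subunit and each class of descent held 1 gene past the threshold, where 2.85% of all genes were lower. In the large subunit 1 of 49 genes fell and 0 rose, with a median log2 fold change of -0.08, which moved to -0.05 with control 2 left out, to -0.12 with control 1 out and to -0.13 with dKO 2 out. In the small subunit 1 of 26 fell and 0 rose, with a median of 0.05, which was -0.06 when each gene was taken as the mean of its probe sets. Without control 2 or control 3 it was -0.01 or -0.03. Of the 45 genes with bacterial counterparts 1 fell, with a median of -0.01, and of the 30 added in mitochondria 1 fell, with a median of -0.08. No test was made between these classes.

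Among large subunit genes with bacterial counterparts, groups did not overlap in 7 of 29 with dKO lower and 1 of 29 with dKO higher. Of all genes, dim ones included, 10.7% and 12.7% did so. The lower large subunit genes besides Mrpl23 included Mrpl9 (-0.54 ± 0.17, limma adjusted p = 0.121) and Mrpl12 (-0.40 ± 0.17, adjusted p = 0.237). MRPL12 is the stalk protein of the ribosome, and it also binds mitochondrial RNA polymerase. Its values were 7.59, 7.81 and 7.68 in control and 7.23, 7.21 and 7.43 in dKO, so that all dKO arrays were lower. Mrpl33 (-0.30), Mrpl34 (-0.32), Mrpl19 (-0.23) and Mrpl24 (-0.18) completed them, and Mrpl17 (0.25) was the one with dKO higher. Of the 16 conserved small subunit genes, groups lay apart downwards in 3 (Mrps2, Mrps17 and Mrps15) and upwards in 4 (Mrps11, Mrps16, Mrps18c and Mrps7).

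Other proteins with known places in the ribosome differed by small amounts and did not pass. Mrps12, of the decoding centre, differed by 0.09 ± 0.19, and Mrpl11, of the site where translation factors bind, by -0.01 ± 0.21. Mrpl45, which holds the ribosome to the inner membrane, differed by -0.07 ± 0.18. Mrpl58, a peptidyl-tRNA hydrolase built into the ribosome, differed by -0.15 ± 0.20. Mrpl44, which has a ribonuclease III fold, differed by -0.01 ± 0.24, and Mrps27, a pentatricopeptide repeat protein, by 0.17 ± 0.24. The intervals of these 6 genes all lay within 2-fold. They were named for their roles, after their values were seen.

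The choice of probe set mattered for single genes. The 76 genes had 156 probe sets in all, with 1 for 34 genes and several for 42, and in 20 of the 42 the probe sets differed in sign. Over all probe sets 4 of the 156 passed, 2 lower and 2 higher, where 3.89% of all probe sets with 1 symbol passed. Besides that of Mrpl23, they belonged to Mrpl19 and Mrpl52, whose probe sets differed among themselves.

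For Mrpl19, a conserved large subunit protein, the third brightest probe set fell while the other 3 did not pass. It read 8.56, 7.69 and 8.51 in control and 6.08, 6.33 and 6.20 in dKO, a difference of -2.05 ± 0.25 (limma, adjusted p over all probe sets = 0.00449). The brightest differed by -0.23 ± 0.16, the second by -0.38 ± 0.25 and the dimmest by 0.11 ± 0.30. The part of the transcript that each probe set reads was not analysed here.

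For Mrpl52 both probe sets next in brightness rose, the second by 0.96 ± 0.21 (limma, adjusted p over all probe sets = 0.0437) and the third by 1.04 ± 0.21 (0.0346). The third read 9.41, 9.48 and 9.40 in control and 10.51, 10.09 and 10.81 in dKO. The brightest had adjusted p = 0.0943 over all probe sets, and the dimmest differed by -0.06 ± 0.19. In 3 of the 4 probe sets every dKO array lay above every control array.

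**Figure D3:**
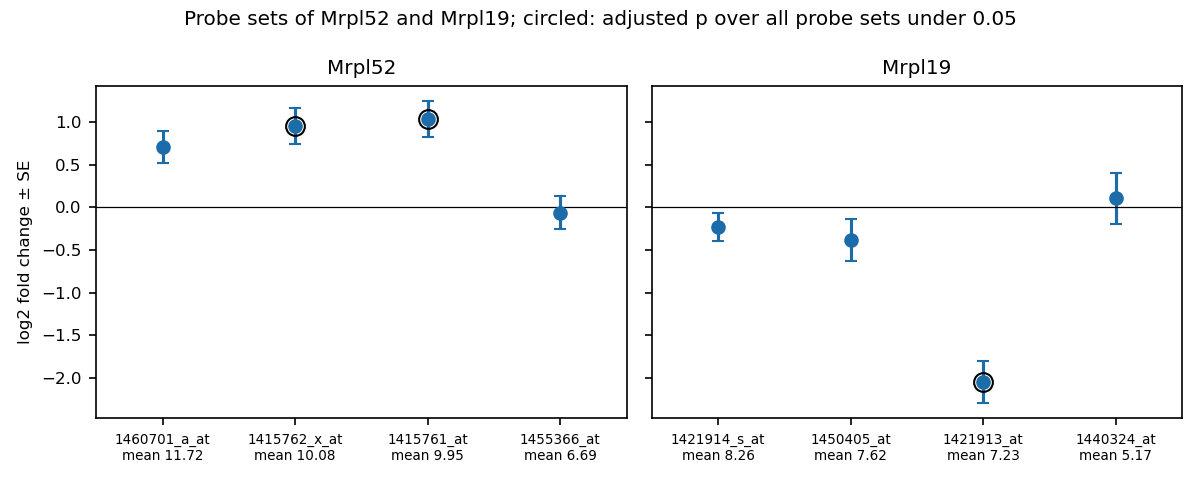
Log2 fold change (dKO minus control, with the SE of the limma fit) of each probe set of Mrpl52 and Mrpl19, ordered by the mean of the 6 arrays given under each name. Circles mark adjusted p under 0.05 over all probe sets: 2 probe sets of Mrpl52 (0.96 and 1.04) and 1 of Mrpl19 (-2.05).

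The genes that build and serve this ribosome were read from lists made by their roles, with p-values adjusted over all genes tested. Of 4 measured ribosomal proteins with other names (Dap3, Ptcd3, Chchd1 and Gadd45gip1) 0 passed, and the values ran from -0.25 to 0.01. Of 24 assembly factors 2 fell and 0 rose, where 2.85% of all genes were lower and 3.12% higher. Their median was -0.09, against 0.05 over all genes. Noa1, a GTPase needed for the small subunit, read 7.88, 8.13 and 8.27 in control and 7.14, 7.35 and 6.46 in dKO, and fell by 1.11 ± 0.25 on the log2 scale (limma, adjusted p = 0.0304). Mrm1, a methyltransferase of the large ribosomal RNA, read 8.50, 8.60 and 8.71 in control and 7.60, 7.92 and 7.69 in dKO, and fell by 0.86 ± 0.17 (adjusted p = 0.0186). The GTPase gene Gtpbp10 differed by -0.51 ± 0.19 and did not pass. Both calls were lost without control 2, control 3 or dKO 1, at adjusted p from 0.0638 to 0.117, so that 0 assembly factors passed in those settings, nor did any without control 1 and dKO 1 together.

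The promoter window of Mrm1 held 1 E-box, shown because Mrm1 is 1 of the 2 assembly factors that fell; the other, Noa1, is not in the promoter table.
Mrm1 (chr11:84819491-84819520, - strand): aagctggggaccCACGTGggaggctgggag
In the 5 ribosomal protein genes with the same letters, the log2 fold changes were -0.30 (Mrpl2), 0.06 (Mrpl20), -0.27 (Mrpl36), -0.20 (Mrpl37) and 0.34 (Mrps18c), and 0 of them passed. Their median was -0.20, and that of the 62 genes without the E-box in the window was -0.04. Over the 13 genes with the NRF1-like core the median was -0.08, from -0.54 (Mrpl9) to 0.25 (Mrpl17), with 10 below 0 and 3 above, and over the 54 without it -0.02. A match of letters is a description and not a binding site.

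In the other lists of mitochondrial gene expression 0 genes passed, where 5.97% of all genes did in either direction. Of 12 translation factors the median was -0.08. The lowest, Guf1, an elongation factor relative, read 7.27, 7.02 and 6.94 in control and 5.82, 7.11 and 4.82 in dKO, so that dKO 2 lay among the controls and the difference of -1.16 ± 0.47 did not pass (limma, adjusted p = 0.224). Without dKO 2 it was -1.76 with adjusted p = 0.0223, and 0.0256 with the mean of its probe sets. The insertase gene Oxa1l differed by -0.39 ± 0.17 and the initiation factor gene Mtif2 by -0.43 ± 0.22.

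Of 19 factors of mitochondrial DNA and RNA the median was -0.30, and 16 lay below 0. All genes had a median of 0.05 with 42.4% below 0, and those kept by the filter on dim genes a median of 0. Twnk, the replicative helicase, read 8.22, 8.62 and 8.38 in control and 7.55, 7.74 and 7.84 in dKO, a difference of -0.70 ± 0.18 (limma, adjusted p = 0.0572). It passed under the filter on dim genes (0.0353), with the mean of probe sets (0.0382) and with array weights (0.0198). Polg2, a subunit of the mitochondrial DNA polymerase, differed by -0.43 ± 0.16 and Prorp, the nuclease of mitochondrial RNase P, by -0.81 ± 0.28. Of 16 mitochondrial tRNA synthetases the median was -0.24, and the asparaginyl enzyme gene Nars2 differed by -0.76 ± 0.20 (adjusted p = 0.062), passing under the filter on dim genes (0.038) and with array weights (0.0301). Fars2 differed by -0.56 ± 0.29 and Mars2 by -0.72 ± 0.37. Mars2 was dim, with means of 5.17 in control and 4.45 in dKO, below the array medians. Its value in dKO 1 (5.44) lay above all control arrays, and it passed without dKO 1 (-1.22, limma, adjusted p = 0.0161).

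Among import and chaperone genes 2 of 21 fell and 0 rose, where 2.85% of all genes were lower and 3.12% higher. The list's median was -0.20, against 0.05 over all genes. Timm8a1, a chaperone of the intermembrane space, read 10.73, 10.55 and 10.65 in control and 9.84, 9.56 and 9.33 in dKO, and fell by 1.07 ± 0.19 on the log2 scale (limma, adjusted p = 0.0102), a call that held with each array left out. Phb2, a prohibitin of the inner membrane, fell by 0.72 ± 0.17 (adjusted p = 0.0387) and kept its call only without dKO 3. Timm17a, a subunit of the inner membrane translocase, differed the other way by 0.63 ± 0.16 (adjusted p = 0.0567). Without control 1, 2 or 3, dKO 1 or dKO 2, 1 gene of this list was lower.

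Of 9 nuclear regulators of mitochondrial genes 1 fell, where 2.85% of all genes were lower. This was Ppargc1b, a coactivator of mitochondrial biogenesis. It read 6.26, 6.33 and 6.51 in control and 5.20, 4.97 and 4.59 in dKO, and fell by 1.45 ± 0.20 on the log2 scale or 2.73-fold (limma, adjusted p = 0.00334), with the call kept without each single array. Under the filter on dim genes it was not among the genes tested. The list's median was 0.01, and Gabpb2 (-0.24 ± 0.20) and Esrra (0.15 ± 0.17), next in p, did not pass.

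The cytosolic ribosome, which translates all other messages, is set beside it on the same arrays. Of 48 of its protein genes, a list chosen after the data were seen, 17 fell and 0 rose. The shares of all genes were 2.85% lower and 3.12% higher. The cytosolic list had a median of -0.60, and groups did not overlap downwards in 40 of 48 and upwards in 1. The corresponding numbers for the mitochondrial ribosome were 2 of 76 lower, a median of -0.06, and 15 and 9 of 76 without overlap. Over all genes, dim ones included, 10.7% did not overlap downwards and 12.7% upwards. The cytosolic count was 9 without control 1, 7 without control 2, 6 without control 3, 8 without dKO 1, 11 without dKO 2 and 19 without dKO 3. It was 4 when the pools control 1 and dKO 1 were both left out, while its median stayed between -0.66 and -0.52 without single arrays. No test compared the lists, and cytosolic ribosomal protein genes have many pseudogenes of similar sequence. The list was taken by symbol, so it also holds Rpl3l, Rpl39l, Rpl7l1, Rpl22l1 and Rps27l, with groups apart downwards only in Rpl22l1 (-0.76). Some of its genes were read from dim probe sets, such as Rps16 (control mean 3.11) and Rpl37 (3.51). Under the filter on dim genes 21 of 43 were lower.

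**Figure D4:**
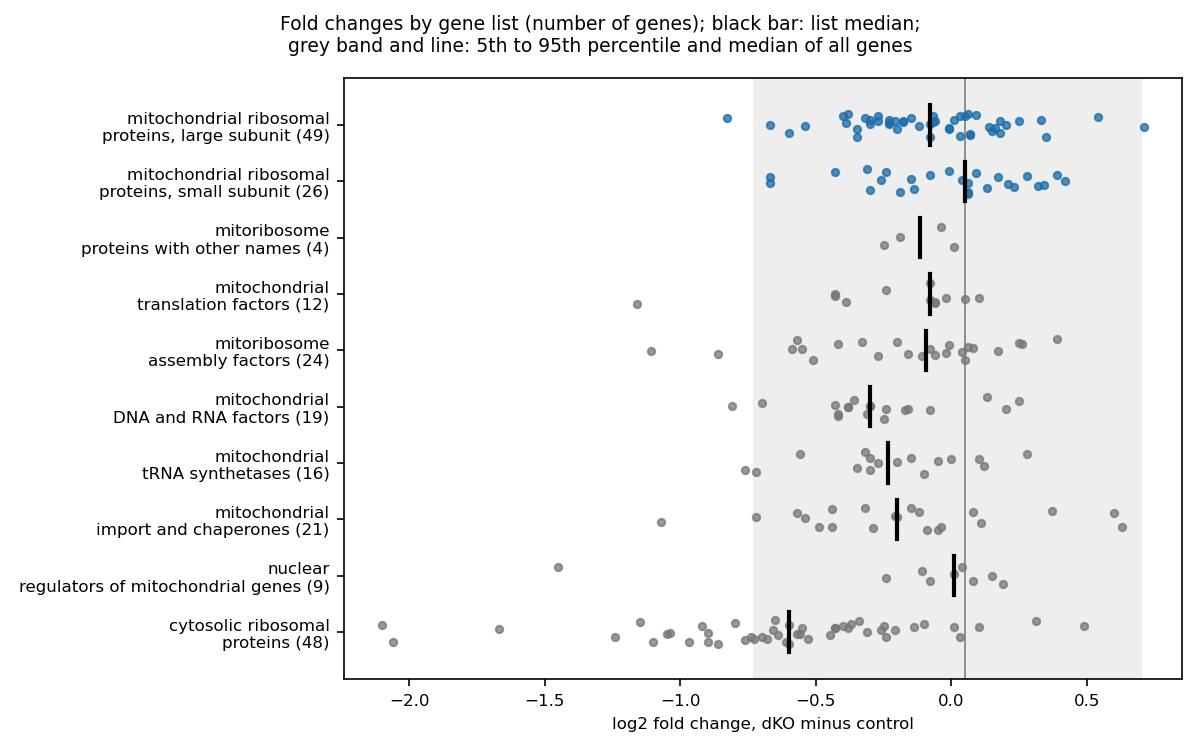
Log2 fold change (x axis, dKO minus control) of each gene in the large and small mitochondrial ribosomal subunits (blue) and in other lists (grey), with the number of genes in parentheses and a black bar at each median. The grey band and line give the 5th to 95th percentile and the median of all genes; the medians of the mitochondrial subunits (-0.08 and 0.05) lie near that of all genes (0.05), and that of the cytosolic ribosomal proteins is -0.60.

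Many of these genes start next to another gene. In the RefSeq windows 23 of 67 (34.3%) had a protein-coding gene starting on the opposite strand within 1000 bases upstream, against 8.48% of 17492 protein-coding genes. Mrpl46 and Mrps11 face each other with 42 bases between their starts, and differed by 0.18 ± 0.20 and 0.42 ± 0.18. Other partners were Twnk, 116 bases from Mrpl43, Sars2, a mitochondrial tRNA synthetase gene 147 bases from Mrps12, Tcp1, a chaperonin gene 238 bases from Mrpl18, and Psma2, a proteasome gene 205 bases from Mrpl32.

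Signs matched in 11 pairs and differed in 12, with Mrpl46 and Mrps11 counted from each side. The 23 genes had a median log2 fold change of 0.09, and their partners one of -0.09. The 44 other genes had a median of -0.15. Of the 23 partners 1 passed, where 5.97% of all genes did in either direction. This was Pnpla7, a lysophospholipase gene that starts 935 bases from Mrpl41. It read 8.51, 8.64 and 8.79 in control and 7.34, 7.69 and 6.76 in dKO and fell by 1.39 ± 0.24 (limma, adjusted p = 0.0106), while Mrpl41 differed by 0.54 the other way. It was named after its values were seen, and its call held without each single array.

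**Figure D5:**
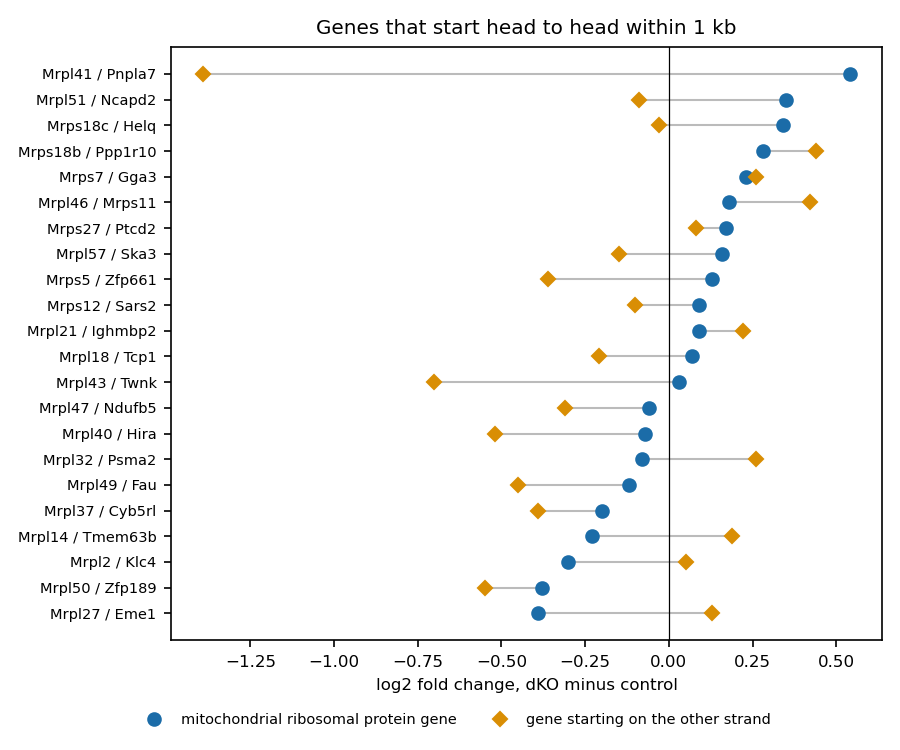
Log2 fold change (x axis, dKO minus control) of each mitochondrial ribosomal protein gene (circles) and of the protein-coding gene that starts on the opposite strand within 1000 bases upstream (diamonds), joined by a line; the pair of Mrpl46 and Mrps11 is drawn once. Partners run from -1.39 (Pnpla7) to 0.44, and the ribosomal genes from -0.39 to 0.54.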

How the data were processed

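The deposited table holds log2 values of 45101 probe sets on 6 arrays, for which the submitters' processing notes name RMA. This method corrects background, sets the arrays to a common distribution and summarizes each probe set. A change of total RNA per cell is therefore not visible, and differences of dim probe sets are understated. Its version and the arrays entered in each run are not stated here. The upper part of the distribution differed between arrays (75th percentiles 7.51 in dKO 3 to 7.70), so it is not settled that all 6 were normalized together. Per the labels' protocols RNA was extracted with Trizol and amplified in 2 rounds. Array medians were 5.91 to 5.94.

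After 64 Affymetrix controls were left out, 34945 probe sets had 1 symbol. Of these, 34741 were matched by gene identifier to RefSeq (GRCm38.p6). Probe sets with several symbols, 4 of them with a mitochondrial ribosomal protein, and mitochondrially encoded transcripts were not analysed here. Groups came from the sample titles. All 18193 genes were fitted by lmFit and eBayes of limma 3.58.1, run under R 4.3.3, with the group as the model's term. Two-sided p-values were adjusted by Benjamini-Hochberg across these genes, and 0.05 was the threshold. No gene was left out for low values; as an alternative, a filter on dim genes kept 75 of the 76. The code of the fit was checked on simulated data with independent noise for each value, which does not test the calls made here. Arrays are pools of different mice, so errors describe the spread between pools, and their number limits the precision. Genes named in full were those past the threshold, the 5 lowest and 5 highest fold changes, those beside the threshold, up to 3 of each list by p, genes with disagreeing probe sets of which 1 passed, and Myc and Mycn. The genes and lists were chosen with earlier results of these data known. Figures used matplotlib 3.10.9.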

Additional observations from a re-analysis of the deposited data

How the results depend on the processing

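The number of lower genes, 2 of 76, was 1 when p-values were adjusted over all probe sets, under 75th percentile scaling and with the replicate block, 0 at a threshold of 0.01, 3 at 0.1 (with Mrps2), 0 without control 1 and dKO 1 together, and 0 to 1 without single arrays. The number of higher genes, 0, was 1 under the filter on dim genes, with the mean of probe sets, under quantile scaling and with array weights (Mrpl52 each time), and 2 with a variance trend and robust moderation together or at a threshold of 0.1 (Mrpl41 and Mrpl52). The median of -0.06 ran from -0.09 to -0.03 over all settings. Over all genes, 519 lower and 567 higher became 849 and 848 with array weights, 181 and 256 at 0.01, and 819 and 794 at 0.1. Without control 1 and dKO 1 together they were 275 and 303. Without single arrays they were 236 to 464 lower and 331 to 617 higher. Chchd1 turned from -0.04 to 0.09 without control 2, and ran from -0.13 to 0.09 without single arrays. The 17 lower cytosolic genes became 10 when adjusted over all probe sets or under 75th percentile scaling, 32 with a variance trend and robust moderation together, 29 with array weights, 6 at 0.01 and 27 at 0.1. The cause was not tested.

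Deviations of same-numbered arrays correlated at 0.06, 0 and 0.02 over all genes, which cannot show whether the arrays were handled in pairs. With the replicate block Mrps35 and Phb2 lost their calls (limma, adjusted p = 0.0854 and 0.0659). Fits without a library and without both pools use fewer arrays.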
